A study of Mus musculus with 8 samples.

Results

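The genes described here are 51 parts of the machinery that copies DNA in S phase and supplies its building blocks. They were taken by symbol from a list of the S-phase machinery, with no threshold on their values, and all 51 were found among the 24982 genes of the count table. That list, like the related and marker lists below, was chosen with earlier results of these data known. The 51 comprise the 6 subunits of the MCM helicase, 7 genes of origin recognition and licensing, and 5 of CDC45 and GINS. The rest are 9 subunits of the DNA polymerases and primase, 6 of the sliding clamp and its loader, 3 of RPA, 2 that join Okazaki fragments, 5 of nucleotide supply, 2 activator E2Fs and 6 of chromatin and repair at the fork. RNA sequencing covered 8 libraries of fibroblasts grown in culture from mouse tail tendon on the C57Bl/6 strain. The labels give 4 libraries the genotype Scx+ (numbered 2, 3, 5 and 6) and 4 the genotype Scx- (numbered 2, 3, 4 and 5), and mark every library, controls included, as treated with 4HT. Scx encodes scleraxis, a transcription factor of the tendon lineage, and the series' title calls its deletion targeted. The sources name neither the driver of the deletion, nor the part of Scx it removes, nor the age of the mice. Whether libraries of a genotype stem from different animals or cultures is not labelled. The p-values therefore describe variation among these 8 libraries only, and part or all of it may be technical.

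Before S phase, the origin recognition complex, CDC6 and CDT1 load the MCM ring onto DNA as an inactive helicase, and geminin later blocks CDT1 so that each origin fires once. CDC45 and GINS turn the loaded ring into the active helicase, the polymerases copy the strands behind it with PCNA as their sliding clamp, and ribonucleotide reductase provides the deoxynucleotides. Many of these genes are transcribed late in G1 under E2F factors, so their RNA is commonly read as a sign of proliferation in cultured fibroblasts.

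Each library held 17343228 to 25180790 gene counts. Scx itself had 132 to 252 counts in the Scx+ libraries and 1 to 3 in the Scx- libraries, so every library matched its label. Scx+ library 5 stood apart: its counts differed from those of the other Scx+ libraries by a chi-square per degree of freedom of 11.5 to 13.3, against 2.42 to 4.53 among those 3. Calls on the replication genes that changed without it are given beside the result. Of 10 tendon fibroblast markers, 9 passed the filter and 8 fell in the Scx- libraries (mean Col3a1 1617 and 736 CPM, counts scaled by library; mean Tnmd 6.93 and 2.63 CPM). Of 8 macrophage and leukocyte markers, 3 passed the filter. Csf1r and Cd68 were higher in the Scx- libraries, and the third was not called, with a log2 change of −0.17. The 8 markers summed to 8.14 to 10.6 CPM in the Scx- libraries against 5.46 to 7.88 in the Scx+ libraries. Cd3e had 0 counts in every library, and Ptprc, Adgre1 and Itgam did not pass the filter. Of 7 endothelial markers, 3 passed the filter, Pecam1 and Vwf did not, Tek was lower and Kdr higher, and the summed level was 68.4 to 86.5 CPM in the Scx+ and 49.5 to 54.2 CPM in the Scx- libraries. Tek made up most of that sum, and without it the other 6 summed to 4.11 to 4.76 and 4.86 to 8.07 CPM, the Scx- libraries being the higher. Without Scx+ library 2, 3 or 5 the endothelial markers called higher were 2, and without Scx- library 3 or 4 they were 0. Of 8 mural markers, 7 passed the filter, 2 were lower (1 without Scx+ library 5 or Scx- library 3, 4 or 5) and Cspg4 was higher, with sums of 343 to 420.4 and 444 to 484 CPM. Without Cspg4 the other mural markers summed to 89.2 to 130.2 and 83.8 to 106.5 CPM, with overlap. Skeletal muscle markers (Myod1, Myh4 and Pax7 at 0 counts), keratinocyte markers and Schwann markers had summed levels whose ranges overlapped between the groups. Acta1, the only 1 of 6 muscle markers to pass the filter, was lower (not without Scx+ library 6 or Scx- library 3 or 5), 0 of 2 keratinocyte markers were called, and of 6 Schwann markers S100b was lower (2 were without Scx+ library 2 or 3 or Scx- library 3). The markers' part in the results on the replication genes was not tested.

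RNA of the replication machinery was lower in the Scx- libraries across most of its complexes, and none of its genes passed the test as higher. Of the 51 genes, all 51 passed the filter on low counts and 33 were lower at an adjusted p under 0.05 in the edgeR quasi-likelihood test with Benjamini-Hochberg adjustment over all 13125 genes tested. Among all genes tested, 14.5% were lower by the same rule and 14.0% were higher. The median log2 change (Scx- over Scx+) was −0.30 over the 51 genes and −0.01 over all genes tested. No replication gene was called higher by edgeR, DESeq2 or limma-voom, and none was higher at an unadjusted p under 0.05 in edgeR, where 37 were lower. In 32 of the 51 every Scx- library lay below every Scx+ library, a pattern that 14.3% of all genes tested showed. The 33 called genes fell by 12.5% to 36.7%, with a median fall of 24.1%. Because the RNA came from whole cultures, fewer cells in S phase and less of each RNA per cell cannot be told apart. Without Scx+ library 5, 40 of the 51 were lower and 1 was higher, and the share of all genes lower rose as well, to 17.5%.

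Summed over the 51 genes, the level was 1807, 1859, 1768 and 1974 CPM in Scx+ libraries 2, 3, 5 and 6, and 1537, 1525, 1578 and 1466 CPM in Scx- libraries 2, 3, 4 and 5; the values of single genes follow this order. The Scx- libraries all lay under the Scx+ libraries, with means of 1852 ± 89.4 and 1527 ± 46.2 CPM (SD, n = 4 each). Scx+ library 6 was the highest and Scx- library 5 the lowest. Of the 51 genes, 44 to 49 lay below their Scx+ mean in each Scx- library, and only 8 did in Scx+ library 6. The authors' deposited comparison table, which was made from other counts, called 34 of the 51 lower (14.1% of its genes) and 0 higher; 33 of those were the genes called here, and the other was Gins2.

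**Figure D1:**
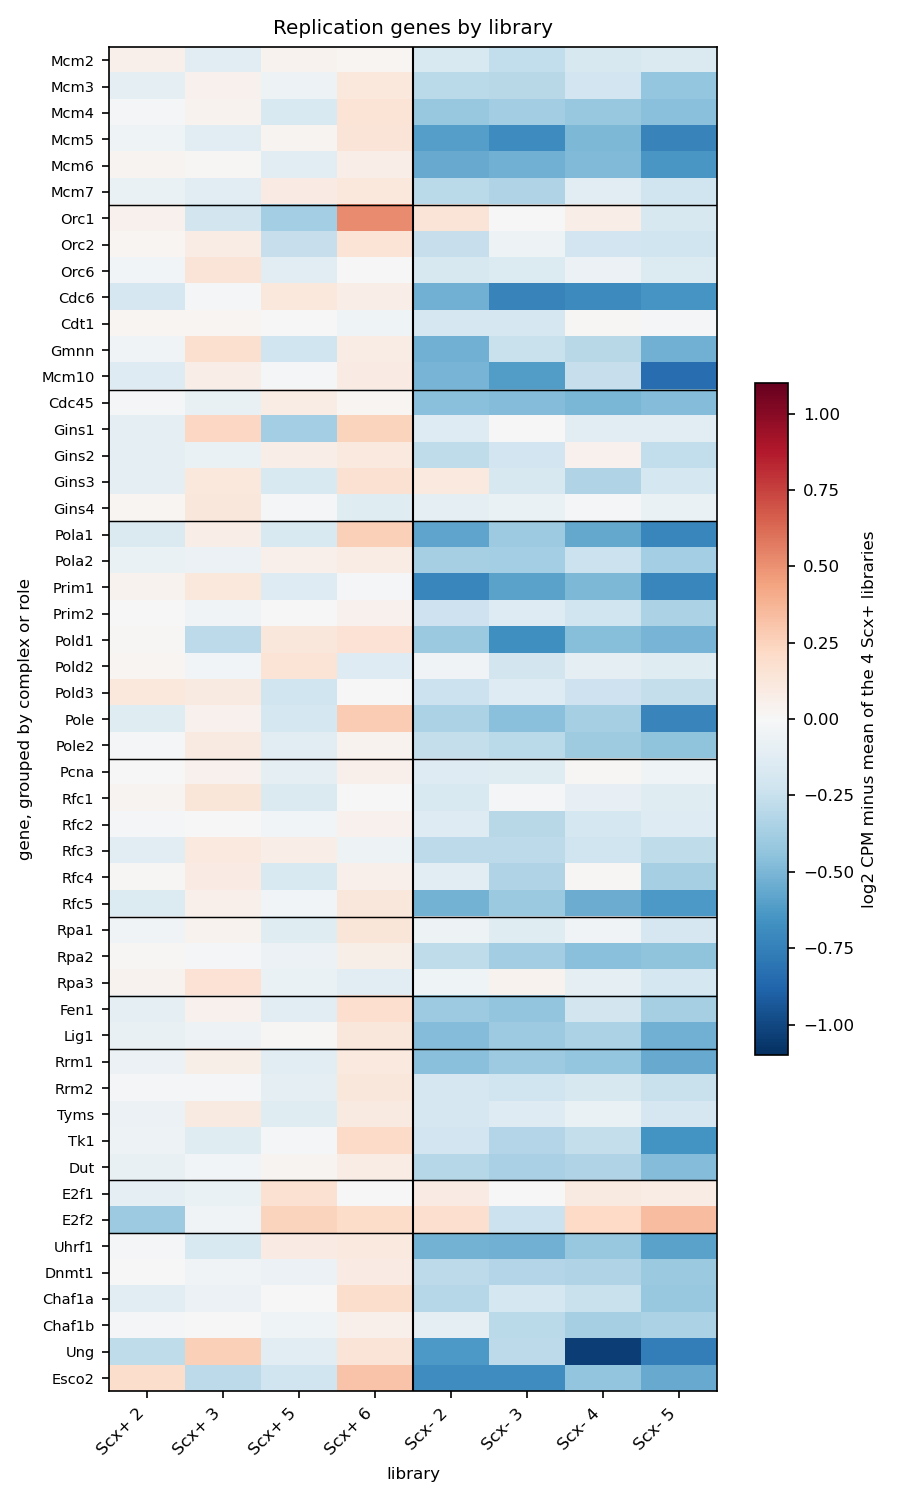
Level of each of the 51 genes in each of the 8 libraries, as log2 CPM minus the mean of the Scx+ libraries, ordered by complex. Blue (lower) fills the columns of the Scx- libraries for most genes, Scx+ library 6 is mostly red (higher), and E2f1, E2f2 and Orc1 show no such step.

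All 6 subunits of the MCM2-7 helicase, the ring that unwinds DNA at the fork, fell in the Scx- libraries. Mcm6 (chromosome 1, 128331590 to 128359664, minus strand, GRCm38) stood at 66.8, 66.03, 60.5 and 68.96 CPM in the Scx+ libraries and 44.6, 45.3, 46.7 and 42.01 CPM in the Scx- libraries. The groups did not overlap, and the fall of 31.9% was a log2 change of −0.56 (SE 0.053, adjusted p = 1.51e-06) in the edgeR quasi-likelihood test. It also had the highest level per length of the 6, 22.5 CPM per kilobase of transcript in the Scx+ and 15.3 in the Scx- libraries. Mcm5 fell most, from 38.9 ± 3.19 to 25.03 ± 1.85 CPM (SD, n = 4 each), and had the lowest level per length, 11.5 and 7.40 CPM per kilobase. Mcm4 fell by 25.3%, Mcm3 by 19.3%, Mcm7 by 15.6% and Mcm2 by 12.6%. The ring holds each subunit once, and the falls in its RNAs ran from 12.6% to 35.9%; differences between subunits were not tested. In Mcm7 alone the groups overlapped, with Scx- library 4 at 49.1 CPM and Scx+ library 3 at 48.9 CPM. Its exons overlap other genes over 12.6% of their length: Ap4m1 and Cops6 on the opposite strand, Mir25 and Mir93 on the same strand. Without a stated use of strand, reads of the opposite-strand genes cannot be told apart.

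Among the genes that mark and license origins, the loader and the brake were lower. Orc1, Orc2 and Orc6, the origin recognition subunits among the 51, were not called. Other origin recognition subunits stand in the list of further licensing and fork factors, where some of them were called lower. Cdc6, the ATPase that recruits MCM rings to origins (chromosome 11, 98907801 to 98923940, plus strand), had the largest fall of the 51. It was at 7.40, 8.35, 9.14 and 8.87 CPM in the Scx+ libraries and 5.82, 5.05, 5.17 and 5.35 CPM in the Scx- libraries, a log2 change of −0.66 (SE 0.098, adjusted p = 0.000117). The highest Scx- value lay under the lowest Scx+ value. Mcm10, which helps the loaded helicase to start, fell from 9.96 ± 0.730 to 6.86 ± 1.16 CPM, and Gmnn, the geminin that inhibits CDT1, from 8.14 ± 0.941 to 6.16 ± 0.630 CPM (SD, n = 4 each). The remaining 4 of the 7 were not called. Orc6, the origin recognition subunit with the highest level per length here (24.0 and 21.8 CPM per kilobase), read 30.2, 34.1, 28.3 and 30.98 CPM against 27.3, 27.7, 29.5 and 27.8 CPM. Those ranges overlapped (edgeR quasi-likelihood test, adjusted p = 0.118). Orc2 had a log2 change of −0.19, Cdt1 of −0.09 and Orc1 of −0.03. Exons of Orc2 lie opposite Nif3l1 over 29.8% of their length, and those of Orc1 opposite Gm12743 over 10.8%. Orc1 was low, at 3.92 ± 1.11 and 3.84 ± 0.355 CPM, and its 95% interval ran from −0.40 to 0.33, so a fall of the size found for Mcm3 lay within it. Without Scx+ library 5, 5 of the 7 were lower, Orc2 and Orc6 being added.

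Cdc45 fell, and the 4 GINS subunits that join it on the MCM ring did not pass the test. Cdc45 (chromosome 16, 18780447 to 18811987, minus strand) was at 11.2, 10.8, 12.03 and 11.5 CPM in the Scx+ and 8.25, 8.19, 8.01 and 8.19 CPM in the Scx- libraries. The Scx- libraries lay close together and under every Scx+ library, and the edgeR quasi-likelihood test gave a log2 change of −0.48 (SE 0.076, adjusted p = 0.000203). Gins4, the GINS subunit with the highest level per length, read 25.6, 27.5, 24.9 and 22.9 CPM against 23.4, 24.0, 25.02 and 23.9 CPM, which overlap. Log2 changes of the others were −0.11 for Gins1, −0.18 for Gins2 and −0.14 for Gins3, with adjusted p of 0.634, 0.114 and 0.418 in that test. Gins2 shares 67.3% of its exon length with Gse1 on the opposite strand, so its counts are uncertain. The share of 1 in 5 is near that of all genes tested, and leaving out Scx- library 4 made 2 of the 5 lower. A correction for GC and length called Gins2 lower (−0.20, adjusted p = 0.0373 in that test). With the replicate number as a block added, Gins2 and Gins4 were both lower (−0.24 and −0.16, adjusted p of 0.00953 and 0.0296).

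Of the 9 polymerase and primase subunits, 7 fell. Prim1, the catalytic subunit of primase, which lays the RNA primers (chromosome 10, 128015168 to 128030037, plus strand), was at 12.3, 13.1, 10.9 and 11.97 CPM in the Scx+ libraries. It was at 7.34, 7.999, 8.53 and 7.33 CPM in the Scx- libraries, a log2 change of −0.63 (SE 0.087, adjusted p = 6.11e-05) in the edgeR quasi-likelihood test. Every Scx- value was under every Scx+ value. Its partners in the polymerase alpha-primase complex also fell: Pola1, the catalytic subunit, by 32.7%, Pola2 by 21.1% and Prim2, the large primase subunit, by 14.9%. Without Scx- library 5 the fall of Prim2 no longer passed (adjusted p = 0.0618). The catalytic subunits of the lagging- and leading-strand polymerases, Pold1 and Pole, fell by 30.8% and 28.3%, and Pole2, a non-catalytic subunit of polymerase epsilon, by 21.2%. The accessory subunits of polymerase delta were not called. Pold2, the most abundant of these 9 subunits per length, read 28.3, 27.2, 30.99 and 25.3 CPM against 27.1, 24.3, 25.8 and 25.5 CPM, and the groups overlapped. Pold3 had a log2 change of −0.22 and an adjusted p of 0.0522 in the same test. Without Scx+ library 5 it was called lower (−0.28, adjusted p = 0.00262).

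PCNA, the sliding clamp often used as a marker of proliferating cells, was not called, while 3 of the 5 subunits of its loader RFC fell. Pcna (chromosome 2, 132249162 to 132253314, minus strand) read 59.4, 61.8, 55.6 and 61.8 CPM in the Scx+ and 53.96, 54.2, 60.03 and 57.8 CPM in the Scx- libraries. The ranges overlapped, and the log2 change of −0.08 had a 95% interval of −0.19 to 0.03 (edgeR quasi-likelihood test, adjusted p = 0.288). With a correction for GC and length, Pcna was called lower (−0.11, adjusted p = 0.0287 in that test), where 19.3% of all genes were lower. Adding the replicate number as a block to that correction left it called (−0.12, adjusted p = 0.0293). Reads of its processed pseudogenes Pcna-ps1 and Pcna-ps2 could be shared with it. Rfc5, a small subunit of the loader, was at 12.9, 14.9, 14.01 and 15.6 CPM against 10.02, 10.8, 9.81 and 9.27 CPM. Its groups did not overlap, with a log2 change of −0.53 (SE 0.083, adjusted p = 0.000195). Rfc3 fell by 17.2% and Rfc2 by 12.5%, and without Scx- library 3 Rfc2 no longer passed (adjusted p = 0.0599). Rfc1, the large subunit, and Rfc4 had log2 changes of −0.10 and −0.20 and were not called. Without Scx+ library 5, 5 of these 6 genes were lower, Rfc1 and Rfc4 being added. Exons of Rfc2, Rfc4 and Rfc5 lie opposite Lat2, Eif4a2 and Wsb2 over 15.1%, 12.65% and 10.7% of their length.

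RPA, the trimer that coats exposed strands, changed in 1 of its 3 subunits. Rpa2, the middle subunit, was at 17.3, 17.1, 16.4 and 18.0 CPM in the Scx+ and 14.2, 13.2, 12.5 and 12.7 CPM in the Scx- libraries. The groups were apart, with a log2 change of −0.39 (SE 0.069, adjusted p = 0.000585) in the edgeR quasi-likelihood test. Rpa1, the large subunit and among the most abundant of the 51 per length (37.99 and 35.3 CPM per kilobase), read 187, 197, 176 and 211 CPM against 185, 176, 187 and 169 CPM, with overlap. Rpa3 had a log2 change of −0.07, and neither was called. Without Scx+ library 5, Rpa1 was called lower too, so 2 of the 3 were. Both genes of Okazaki fragment joining fell. Lig1, the ligase that seals the fragments (chromosome 7, 13277283 to 13311433, plus strand), was at 34.5, 35.05, 36.7 and 39.6 CPM against 26.2, 27.6, 28.6 and 25.3 CPM. No value of the groups crossed, and the edgeR quasi-likelihood test gave a log2 change of −0.44 (SE 0.061, adjusted p = 6.09e-05). Fen1, the nuclease that trims the flaps, fell by 21.8%, but 84.2% of its exon length lies opposite Gm10143 and Tmem258, so its counts are uncertain.

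Ribonucleotide reductase, which makes deoxynucleotides, held the most abundant RNAs of the 51 per length in the Scx+ libraries, and both subunits fell; in the Scx- libraries Pcna, at 37.2 CPM per kilobase, was above Rrm1. Rrm1, the large subunit with the catalytic site (chromosome 7, 102441695 to 102469771, plus strand), was at 191, 209, 184 and 215 CPM in the Scx+ and 145, 151, 148 and 136 CPM in the Scx- libraries. The groups did not overlap, with a log2 change of −0.46 (SE 0.053, adjusted p = 1.03e-05) in the edgeR quasi-likelihood test. Rrm2, the small subunit whose protein accumulates in S phase, was at 175, 174, 164 and 192 CPM against 155, 151, 156 and 149 CPM. Its groups lay apart too, with the smaller log2 change of −0.21 (SE 0.047, adjusted p = 0.00386 in that test). Per kilobase, Rrm2 had 80.4 and 69.7 CPM and Rrm1 50.01 and 36.3 CPM in the Scx+ and Scx- libraries. Dut, which removes dUTP, fell by 22.7% and Tk1, the salvage kinase for thymidine, by 22.3%. Tyms, the enzyme of thymidylate synthesis, whose pseudogene Tyms-ps could share reads with it, was not called, with a log2 change of −0.15 and an adjusted p of 0.134 in the edgeR quasi-likelihood test; without Scx+ library 5 it was called lower (−0.19, adjusted p = 0.0345).

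**Figure D2:**
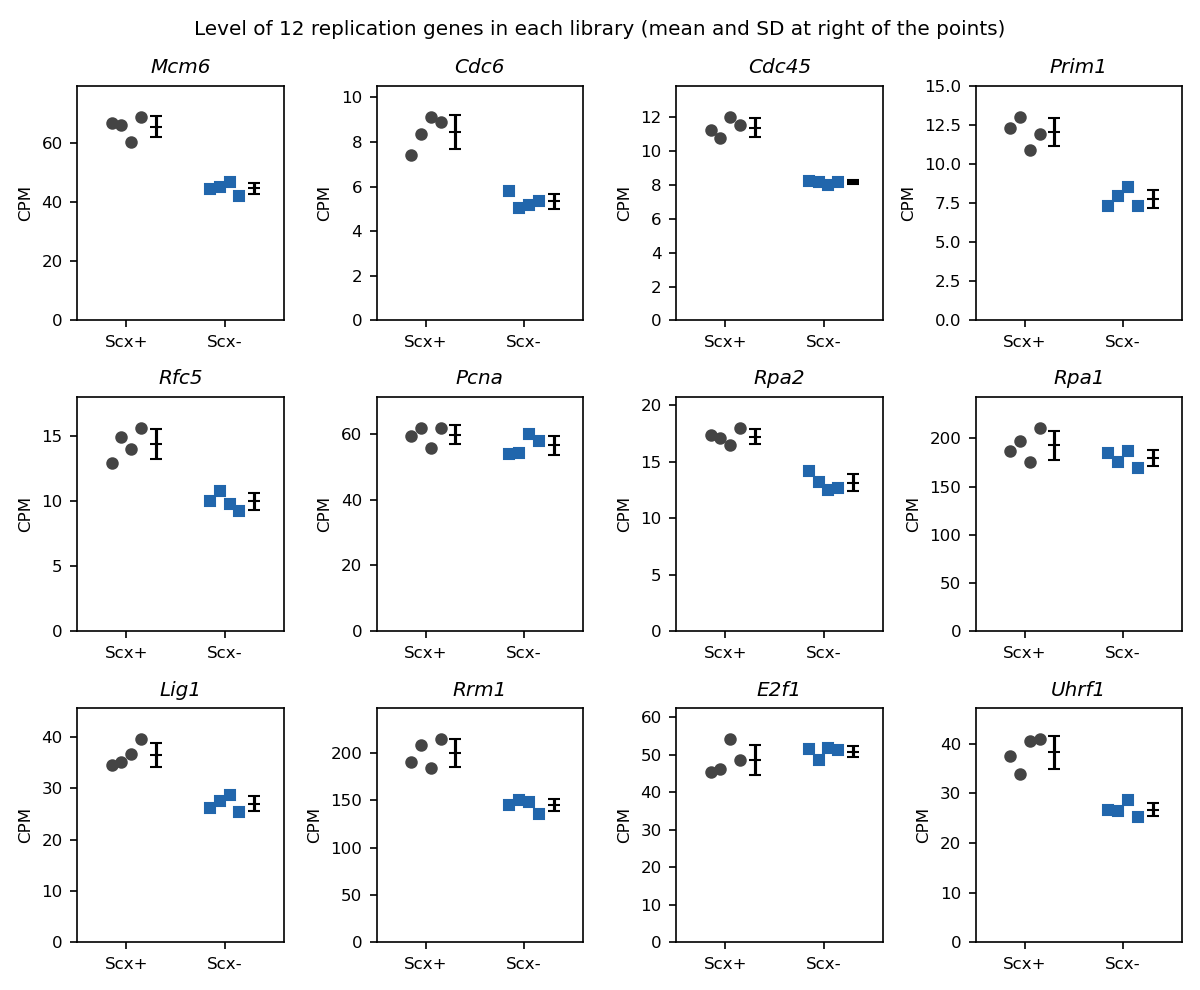
Level in CPM of 12 of the genes, 1 panel per gene, with a point for each library and the mean and SD of each group (n = 4) to the right of its points. The points of the Scx- group lie below all points of the Scx+ group for Mcm6, Cdc6, Cdc45, Prim1, Rfc5, Rpa2, Lig1, Rrm1 and Uhrf1, and mix with them for Pcna, Rpa1 and E2f1.

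All 6 genes that copy or guard chromatin behind the fork fell. Uhrf1, which reads hemimethylated DNA and recruits DNMT1, was at 37.5, 33.9, 40.5 and 41.03 CPM in the Scx+ and 26.6, 26.5, 28.6 and 25.3 CPM in the Scx- libraries. Dnmt1, the maintenance methyltransferase, read 102, 99.2, 97.5 and 109 CPM against 83.3, 81.3, 81.05 and 76.5 CPM. Both pairs of groups were apart, with log2 changes of −0.52 (SE 0.066) and −0.34 (SE 0.046), and adjusted p of 2.77e-05 and 5.44e-05 in the edgeR quasi-likelihood test. The subunits of the histone chaperone CAF-1, Chaf1a and Chaf1b, fell by 18.6% and 17.1%. Exons of Chaf1a lie opposite Ubxn6 over 52.5% of their length, so the counts of Chaf1a are uncertain. Chaf1b lost its call without Scx+ library 6 or Scx- library 3, 4 or 5, with adjusted p from 0.0529 to 0.0739. Ung, the uracil glycosylase, and Esco2, which acetylates cohesin in S phase, had falls of 36.1% and 34.8% at low levels (3.24 ± 0.552 and 6.04 ± 1.24 CPM in the Scx+ libraries; SD, n = 4).

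The 2 activator E2Fs in the set, E2f1 and E2f2, switch on many of these genes in G1. They were the only 2 of the 51 with a log2 change above 0, and neither was called. E2f1 (chromosome 2, 154559407 to 154569892, minus strand) was at 45.2, 46.1, 54.2 and 48.5 CPM in the Scx+ libraries and 51.6, 48.6, 51.8 and 51.1 CPM in the Scx- libraries. The groups overlapped, Scx+ library 5 being the highest of the 8, and the log2 change of 0.06 had an adjusted p of 0.453 in the edgeR quasi-likelihood test. Without Scx+ library 5 that change was 0.13 with an adjusted p of 0.0319. E2f2, the low end of the set at 0.343 and 0.372 CPM per kilobase, was at 1.21, 1.55, 1.89 and 1.83 CPM against 1.82, 1.36, 1.86 and 2.02 CPM, and its log2 change was 0.11. Among 16 other E2F, pocket and DREAM proteins, 6 were lower and 0 higher (1 higher without Scx+ library 5). The smallest p-values belonged to the repressor E2Fs E2f7 and E2f8, with log2 changes of −0.68 and −0.72, and to Mybl2, with −0.82.

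**Figure D3:**
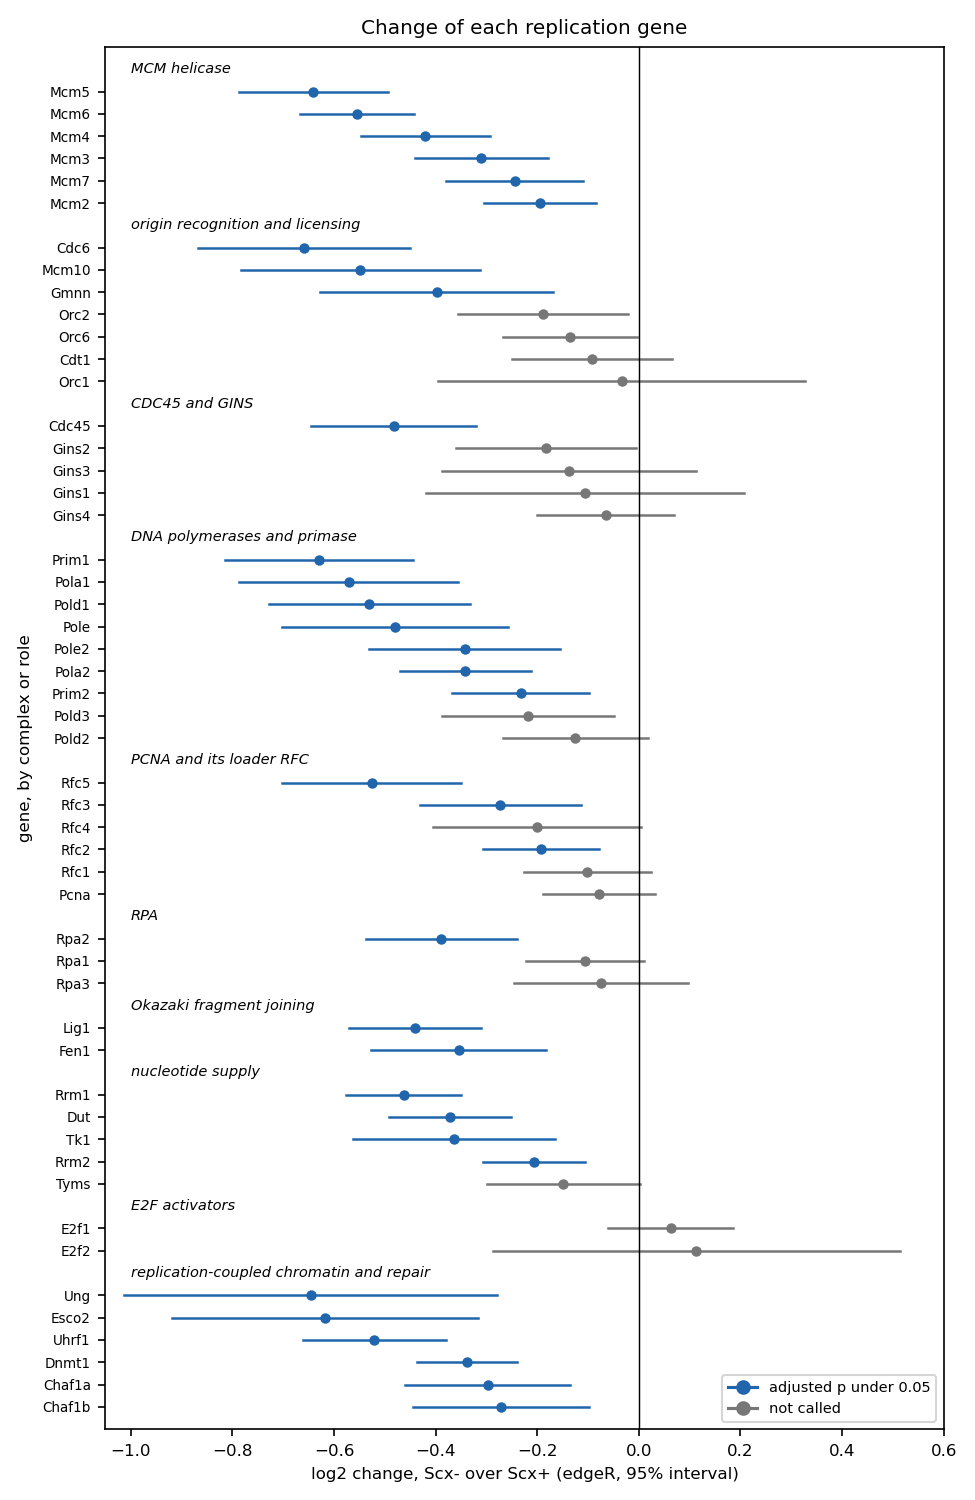
Log2 change (Scx- over Scx+) of the 51 genes with its 95% interval, grouped by complex; blue points passed the test at an adjusted p under 0.05 and grey points did not. The blue points run from −0.66 for Cdc6 to −0.19 for Rfc2, and the 18 grey points from −0.22 for Pold3 to 0.11 for E2f2.

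RefSeq promoter windows (GRCm38.p6, 250 bases before to 50 after a start site) were found for 42 of the 51 genes. They were searched on both strands for the E2F words TTTCCCGC, TTTCGCGC, TTTGCCGC and TTTGGCGC. Of the 52 windows of these genes, 17 (32.7%) held a word, against 2.28% of all 32544 RefSeq windows and 3.77% of the 13138 windows of genes tested. Counted by gene, 12 of 27 called genes with a window held a word and 5 of 15 that were not called did. The word CCAAT, bound by NF-Y, was in 59.6% of the windows, in 37.4% of all RefSeq windows and in 37.6% of those of genes tested. The CHR word TTTGAA of late cell-cycle genes was in 13.5%, 17.8% and 11.9% of these. A match is a description of letters, and binding was not measured. The sequences printed run up to the start, 5′ to 3′ on the gene's strand, for 250 bases or as far as GENCODE annotates no UTR, with E2F words in capitals. They are shown to set the called genes with the largest falls that hold a word there (Cdc6, Mcm5, Pola1 and Mcm6) beside a gene that holds one and was not called (Orc1). Cdc6 is shown at chr11:98907982-98908150 on the plus strand, Mcm5 at chr8:75109259-75109508 on the plus strand and Pola1 at chrX:93632156-93632405 on the minus strand. Mcm6 is shown at chr1:128359706-128359955 on the minus strand and Orc1 at chr4:108579337-108579453 on the plus strand. In Mcm5 and Mcm6 the longer capital run is a pair of overlapping words.
Cdc6: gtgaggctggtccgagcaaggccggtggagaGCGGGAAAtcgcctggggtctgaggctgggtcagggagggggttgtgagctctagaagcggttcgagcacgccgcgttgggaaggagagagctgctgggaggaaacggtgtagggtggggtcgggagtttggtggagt
Mcm5: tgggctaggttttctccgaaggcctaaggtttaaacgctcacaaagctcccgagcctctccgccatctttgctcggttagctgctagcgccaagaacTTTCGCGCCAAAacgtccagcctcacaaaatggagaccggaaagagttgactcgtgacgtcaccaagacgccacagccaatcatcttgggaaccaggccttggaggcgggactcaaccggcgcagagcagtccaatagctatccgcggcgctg
Pola1: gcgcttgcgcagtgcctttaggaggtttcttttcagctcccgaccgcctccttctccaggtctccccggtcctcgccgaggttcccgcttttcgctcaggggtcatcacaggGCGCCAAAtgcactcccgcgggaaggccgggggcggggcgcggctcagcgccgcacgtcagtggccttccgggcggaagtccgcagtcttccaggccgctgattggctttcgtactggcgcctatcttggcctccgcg
Mcm6: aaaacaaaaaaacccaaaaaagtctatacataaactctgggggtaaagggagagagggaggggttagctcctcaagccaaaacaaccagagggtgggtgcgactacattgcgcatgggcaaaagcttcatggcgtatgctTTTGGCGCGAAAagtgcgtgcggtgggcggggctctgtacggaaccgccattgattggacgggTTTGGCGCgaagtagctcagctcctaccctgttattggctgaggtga
Orc1: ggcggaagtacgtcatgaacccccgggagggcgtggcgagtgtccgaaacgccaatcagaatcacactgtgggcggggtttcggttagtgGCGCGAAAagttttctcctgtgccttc

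Mcm6 held 3 words and a log2 change of −0.56, Cdc6 held 1 and had the largest fall, and Orc1 held 1 with a log2 change of −0.03. A word before the RefSeq start used here was therefore present in genes at both ends of the range of falls. In GENCODE, Cdc6 begins at base 98907801 and Orc1 at base 108579423, so the printed words of both lie inside the annotated genes.

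Genes around the replication machinery were read as lists, beside the 14.5% of all genes tested that were lower. Mitosis genes were lower in 28 of 28, with a median log2 change of −0.41, and in 16 of them the groups did not overlap. Their summed level was 1113, 1173, 982 and 1271 CPM against 912, 856, 910.4 and 796 CPM. The ratio of the replication sum to the mitosis sum was 1.64 ± 0.111 in the Scx+ and 1.76 ± 0.0672 in the Scx- libraries (SD, n = 4 each), with overlap. Of 17 further licensing and fork factors, 10 fell, led by Wdhd1, Clspn, the claspin that relays fork stress, and Timeless (log2 changes of −0.56, −0.67 and −0.48). Of 16 G1 cyclins, kinases and inhibitors, 6 were lower and 3 higher. The cyclins E and A that drive S phase were the lower genes of smallest p, with Ccne2 at −0.96, Ccna2 at −0.58 and Ccne1 at −0.39; the 3 higher were Ccnd2, Cdk4 and Cdkn1a, the last an inhibitor of these kinases.

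Among 13 other clamp loaders, nucleases and topoisomerases 6 were lower, and Exo1, the 5′ exonuclease, had the smallest p (−0.76). Of 9 other chromatin replication factors 4 were lower, led by the remodeler Hells (−0.74). Nucleotide metabolism outside the 51 was called as follows: 3 of 13 genes of the thymidylate cycle and salvage were lower (Samhd1 and Dck among them), as were 5 of 18 genes of purine and pyrimidine synthesis (10 without Scx+ library 5). Checkpoint genes were lower in 3 of 9, and Rad9a was higher (0.35). Among 8 genes of licensing factor degradation 3 were lower, with Dtl, which targets CDT1, at −0.72, and Cul4a was higher. Without Scx+ library 2 or 6 the lower count there was 1, and Cul4a was not called without Scx+ library 2 or 6 or Scx- library 3, 4 or 5. Of 7 base excision repair genes 2 were lower and Apex1 was higher (0.31); 1 was lower without Scx+ library 2 or Scx- library 2 or 3. Among 11 other polymerase subunits 2 were lower (1 without Scx+ library 3 or 6 or Scx- library 2 or 5) and Polk was higher, but was not called without Scx+ library 6 or Scx- library 2, 3 or 4. Cohesin genes were lower in 2 of 12, near the share of all genes tested, in 6 without Scx+ library 5 and in 1 without Scx+ library 2 or 6 or Scx- library 2 or 4.

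**Figure D4:**
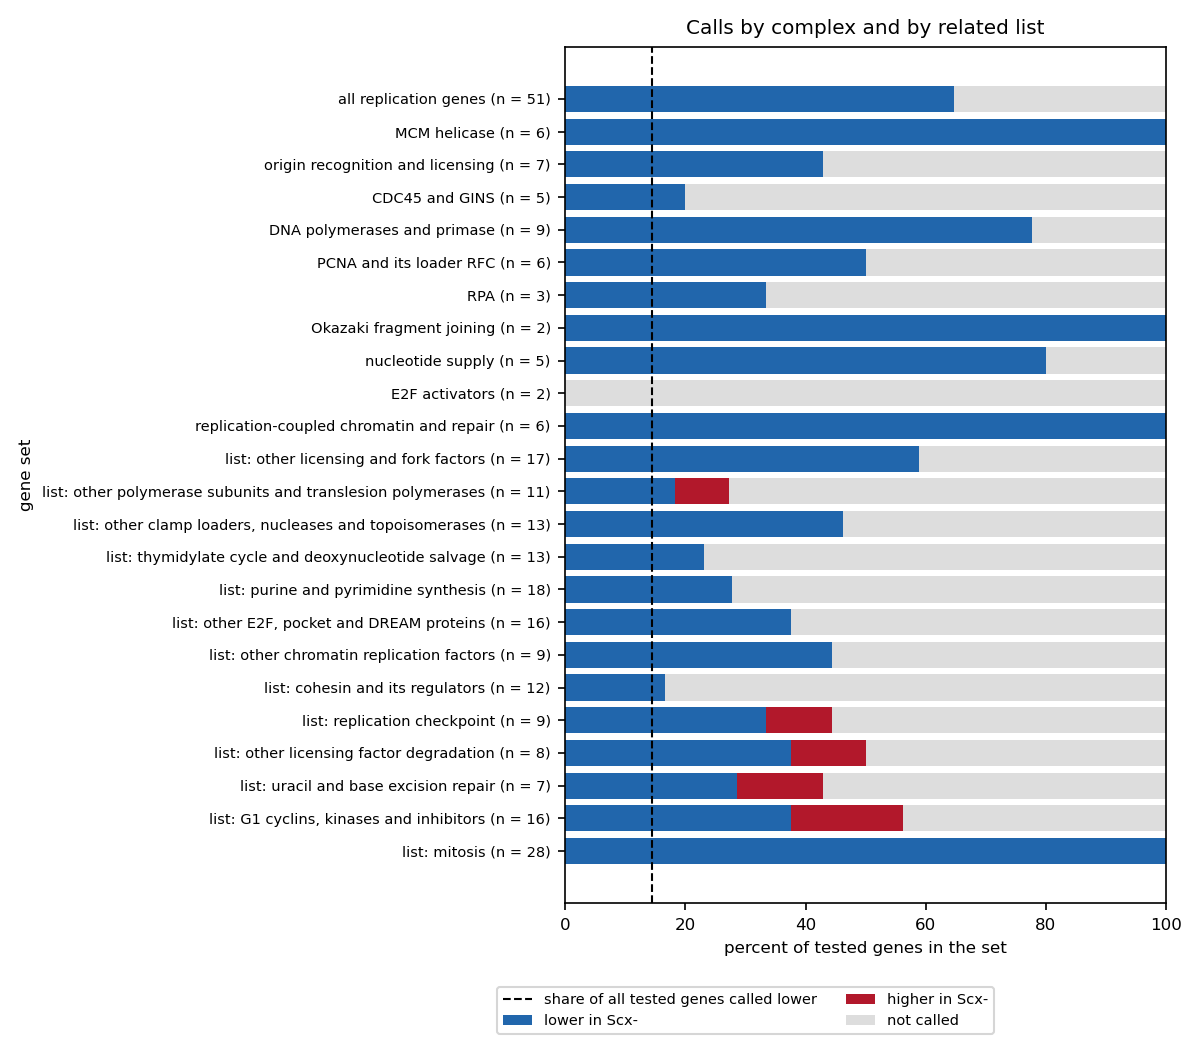
Percent of tested genes called lower (blue), higher (red) or not called (grey) in the replication genes, in each of their complexes and in each related list, with the number tested; the dashed line is the 14.5% of all 13125 genes tested that were lower. The MCM, Okazaki and chromatin groups and the mitosis list reach 100% lower, and the E2F activators stand at 0.

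**Figure D5:**
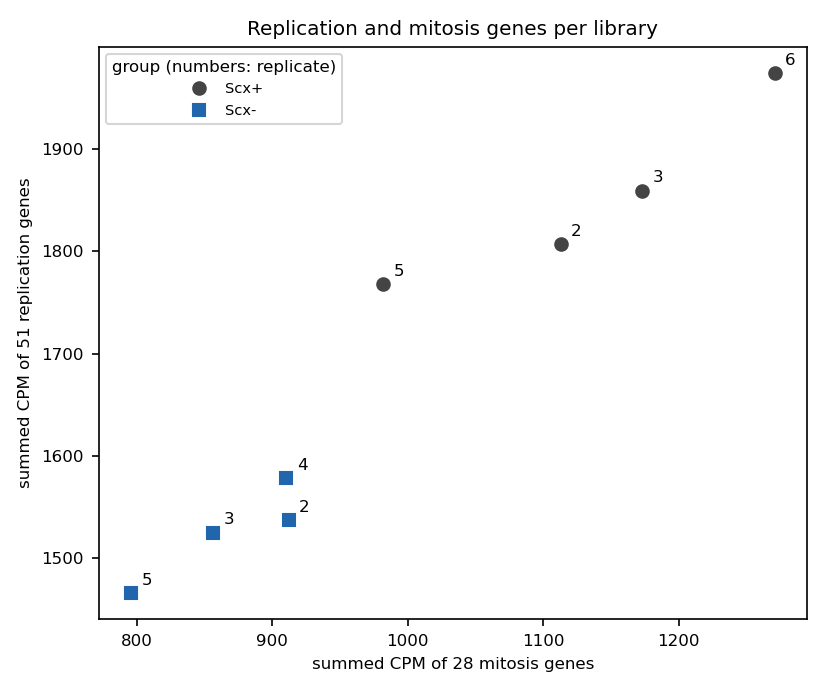
Summed CPM of the 51 replication genes against summed CPM of the 28 mitosis genes, 1 point per library with its number; neither axis starts at 0. The 4 Scx- libraries lie below and left of the Scx+ libraries, at 1466 to 1578 CPM against 1768 to 1974 CPM for the replication genes.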

How the data were processed

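RNA was measured in 8 libraries, 4 per genotype, grouped by the sample titles. Per the labels' protocols, a miRNeasy Micro kit with DNase I gave the RNA. The submitters' processing notes name STAR, DESeq2, FastQC and the build mm10. What each did, and which counter, gene models and strand setting were used, is not given in the sources used here.

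The authors deposited raw counts per gene symbol, and every test rests on these. Depth was 17343228 to 25180790 gene counts per library. Entries for reads in no feature (7.44% to 8.67% of counts) and ambiguous reads (0.490% to 0.567%) were left out. The authors' deposited comparison table holds a mean normalized coverage signal, a log2 fold change, 2 score columns (its standard error and test statistic) and p-values, per the file headers. The median ratio of that mean normalized count to the mean deposited count was 1.26, so the table rests on other counts. The sign of its fold changes matched the counts for 91.8% of genes, and it was used only for comparison.

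The test was edgeR 4.0.16 in R 4.3.3 (filterByExpr, minimum count 10 and total 15; TMM scaling; quasi-likelihood fit on group; Benjamini-Hochberg adjustment over 13125 genes at 0.05). Standard errors are the absolute log2 change over the square root of F, with 95% intervals. The pipeline was tested on simulated data. CPM use the TMM factors, and levels per kilobase use the APPRIS principal transcript of GENCODE mouse release 21. Symbols were placed on GRCm38 for 98.1% of genes.

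The members, the related lists and the marker lists were chosen with earlier results of these data known. Library by library, the text gives the member of each complex with the smallest p and the one with the highest level per length, and both ends of the range. It names every member not called and at most 3 genes of smallest p per list. As alternatives, scaling was by RLE or upper quartile, the filter was dropped or set to 5 CPM in 4 libraries, and the tool was DESeq2 1.42.0 or voom of limma 3.58.1. Others were the replicate number as a block, the shared numbers alone, a correction for GC and length, thresholds of 0.01 and 0.1, and leaving out each library.

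A few genes of the lists are not reported here by name but stay in the counts.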

Additional observations from a re-analysis of the deposited data

Results flagged for a closer look

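In 4 of 102 groups (51 genes in 2 genotypes, 4 libraries each) 1 library lay far from the other 3 by Dixon's test, which flags about 1 in 20 groups by chance. Mcm2 was lowest in Scx- library 3, at 39.3 CPM against 42.1 to 42.6 CPM in the others. Gins1 was highest in Scx- library 3, at 3.28 CPM against 2.99 to 3.02 CPM. Pola2 and Rfc3 were highest in Scx- library 4, at 24.2 CPM against 22.0 to 22.2 CPM and at 12.3 CPM against 11.7 to 11.8 CPM. No Scx+ group of the 51 was picked out in this way.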

How the results depend on the processing

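The count of replication genes lower in the Scx- libraries was 25 to 42 over all alternatives and the median log2 change stayed between −0.34 and −0.27. Of the 33 called genes, 25 passed in every alternative fit run and 30 when any 1 library was left out. Of the 18 others, 12 passed in at least 1 alternative, E2f1 among them as higher, without Scx+ library 5. With the replicate number as a block, 31 were lower (all genes: 1676 lower, 1561 higher). The deviations of same-numbered libraries correlated at −0.0602, 0.156 and 0.0568, and the labels do not say what a number marks. The numbers shared by both groups gave 25 without and 30 with that block (all genes: 1239 and 1616 lower). The correction for GC and length gave 40, or 42 with the block, where 19.3% and 18.1% of all genes were lower. At an adjusted p of 0.01, 26 replication genes were lower (all genes: 1143 lower, 1191 higher). Upper-quartile scaling called 34 replication genes lower. Over all genes it called 2288 lower and 1539 higher, so higher genes made up 40.2% of all calls against 49.2%. Leaving out 1 library gave 31 to 40 replication genes lower and 0 to 1 higher. Orc1 turned positive with limma-voom (0.0015), with the block (0.158), with the shared numbers without and with it (0.157 and 0.161), with the GC correction and block (0.141), without Scx+ library 6 (0.176) and without Scx- library 5 (0.0302). E2f2 turned negative without Scx+ library 2 (−0.00582). Leaving out 1 library gave −0.156 to 0.176 for Orc1 and −0.00582 to 0.228 for E2f2. The cause was not tested. E2f2, at the lowest level, had the widest 95% interval of the 18 genes not called (−0.29 to 0.51).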

Other observations

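The subunits of ribonucleotide reductase fell unequally, a pattern chosen after the values were seen and given without a test. The ratio of Rrm2 to Rrm1 in CPM per kilobase was 1.67, 1.52, 1.63 and 1.63 in Scx+ libraries 2, 3, 5 and 6 and 1.94, 1.83, 1.92 and 2.0 in Scx- libraries 2, 3, 4 and 5. Every Scx- library lay above every Scx+ library. The ratio of Cdt1 to its inhibitor Gmnn was 0.845 ± 0.107 in the Scx+ and 1.05 ± 0.133 in the Scx- libraries (SD, n = 4 each), and those groups overlapped.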
